A study of Mus musculus with 8 samples.

Results

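Chemokines and their receptors were examined in ileal tumours, by taking every probe whose gene symbol begins with a chemokine or chemokine receptor stem (Ccl, Cxcl, Cx3cl, Xcl, Ccr, Cxcr, Cx3cr or Xcr) followed by a number. This gave 67 probes of 53 genes, of the 18138 gene symbols on the array, with 44 probes for 35 ligands and 23 probes for 18 receptors. Total RNA had been labelled and hybridised to 8 Illumina BeadChip arrays. The 4 control arrays (1 to 4) were of tumours from mice of genotype APCmin/+/VP16 and the 4 VP16LXRa arrays (5 to 8) of tumours from APCmin/+/VP16LXRa mice. All carried the Apc Min mutation, which gives rise to intestinal tumours, in a C57BL/6J-FVBN mixed strain at 8 months of age. VP16 is a viral transactivation domain, and VP16LXRa joins it to liver X receptor alpha, a sterol-sensing nuclear receptor. The sources used here do not state the transgenes' promoter, nor whether each tumour came from a separate mouse. Every p-value below therefore reflects the spread among these arrays, which may be technical in part.

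Chemokines are small secreted proteins that draw leukocytes along a gradient, and each binds one or more seven-pass receptors coupled to inhibitory G proteins. In the gut, Ccl25 and Ccl28 from the epithelium guide lymphocytes homed to the mucosa, Cxcl13, Ccl19 and Ccl21 build lymphoid follicles, Cxcl9, Cxcl10 and Cxcl11 are induced by interferon, and Cxcl1 and Cxcl2 recruit neutrophils. The question the groups address is whether an active LXR alpha in the tumour went with a different chemokine profile.

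Levels are given as log2 normalised intensity, on which 1 unit is a doubling, and a probe is called detected on an array when its signal exceeded that array's negative control beads at a detection p under 0.05. Between 49.0% and 54.7% of all probes were detected per array. The epithelial markers were all measured (8 of 8 genes, summed intensity 76323 to 112024 in controls and 79243 to 96488 in VP16LXRa tumours). Of 7 ileal enterocyte markers 5 were tested, among them Fabp6, the ileal bile acid binding protein, while Fabp2 and the ileal bile acid transporter Slc10a2 were detected on no array. Array VP16LXRa 5 stood apart, with a median correlation to the other arrays of 0.869 against 0.910 to 0.942 for the rest. For the main probe of each chemokine or receptor gene, values without it are given beside differences it moved by over 1.5 times. For second probes, gene lists and other genes no such values are given, so whether that array moved them cannot be read from the text.

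More of the ligands than of the receptors were detected. Of the 35 ligands, 16 were detected on all 8 arrays by at least 1 probe and 6 (Ccl1, Ccl20, Ccl22, Ccl26, Cxcl3 and Cxcl15) on none. Of the 18 receptors, only Ccr6, Cxcr4 and Cx3cr1 were detected on all 8, and 10 were detected on none. The receptors detected on no array were Ccr1, Ccr1l1, Ccr2, Ccr3, Ccr4, Ccr8, Ccr9, Ccr10, Cxcr7 (now Ackr3) and Xcr1. Such a probe did not exceed the negative control beads, which limits the signal and does not show that the transcript is absent.

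The number of ligand probes detected was 28, 29, 26 and 31 of 44 in controls 1 to 4, and 27, 33, 29 and 25 in VP16LXRa 5 to 8. The group means were 28.5 ± 2.08 (SD, n = 4) and 28.5 ± 3.42 (SD, n = 4), equal between the groups. Receptor probes detected numbered 8, 11, 6 and 8 of 23 in the controls and 8, 6, 4 and 7 in the VP16LXRa tumours, with means of 8.25 ± 2.06 (SD, n = 4) and 6.25 ± 1.71 (SD, n = 4). The ranges overlapped, and control 2 had the most receptor probes of any array.

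**Figure D1:**
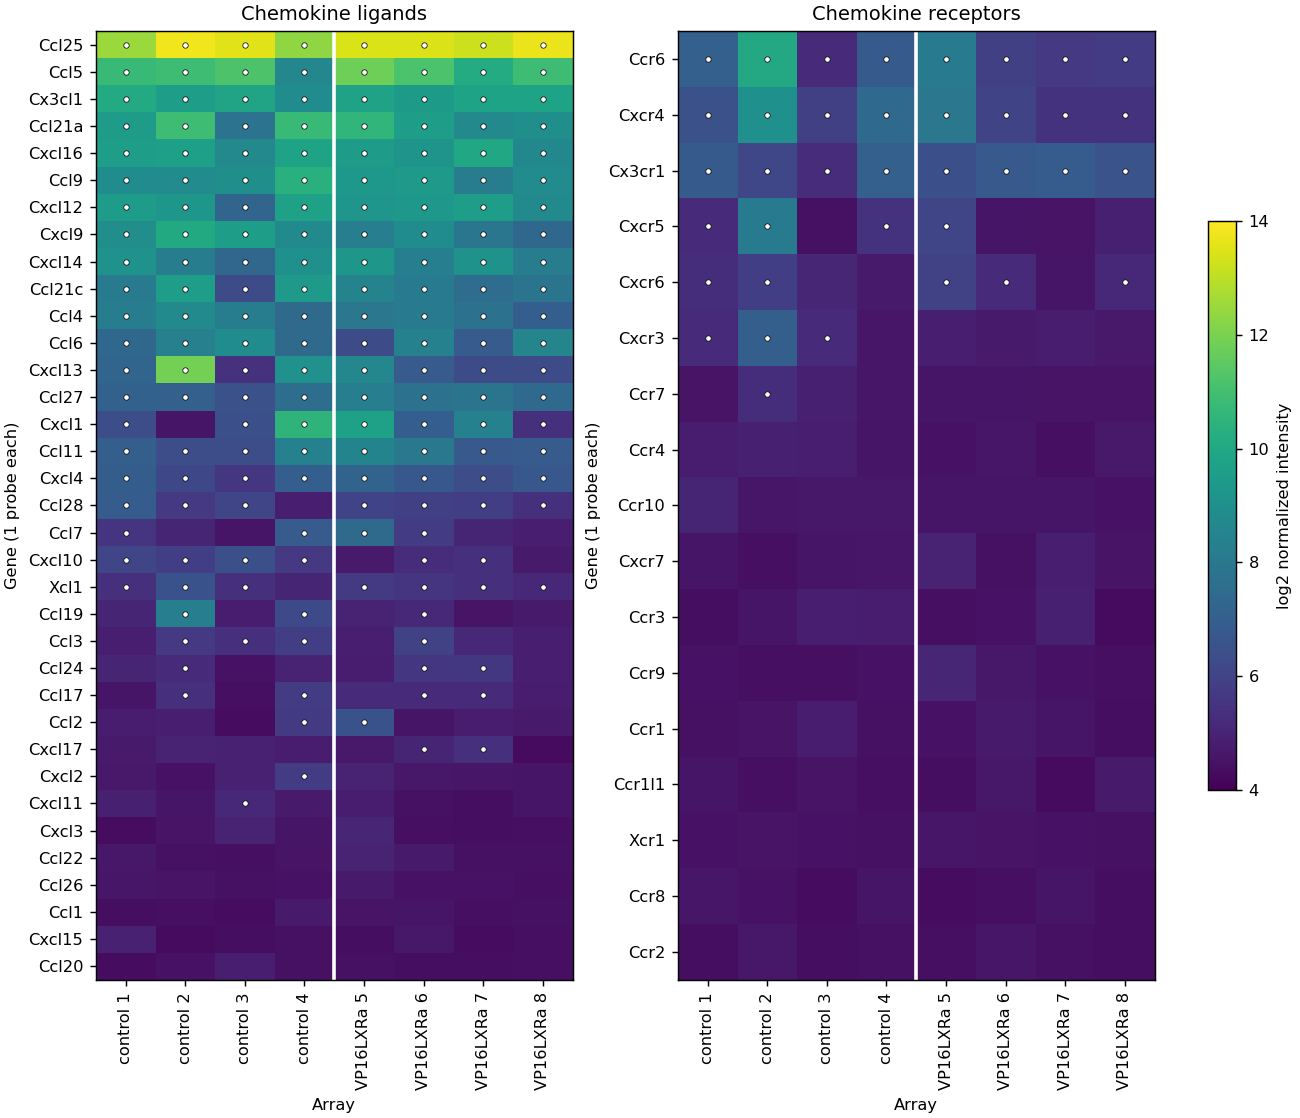
Level of 52 genes on each array, as log2 normalised intensity by colour, ligands on the left and receptors on the right, with a white dot where the probe was detected. Each gene is shown by 1 probe, the one of highest mean among those tested or, if none was, among all its probes, and 10 of the 17 receptor rows carry no dot.

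The comparison of VP16LXRa with control tumours was fitted over all probes detected on at least 4 of the 8 arrays, which kept 30 ligand and 7 receptor probes, standing for 23 ligand and 6 receptor genes. Of these 37 probes 0 passed an adjusted p of 0.05 with limma, as did 0% of the 13426 probes tested on the array. At an unadjusted p under 0.05 there were 3 of 37, against 2.53% of all probes. Lower in VP16LXRa tumours were 2 of them, the Cxcl10 and Cxcl9 probes, against 0.812% of all probes, and higher was 1, a Ccl27 probe, against 1.72%. The groups did not overlap for 1 of the 37, Cxcl10, which was lower in VP16LXRa tumours. Among all probes 1.74% did not overlap, 0.722% lower and 1.01% higher. These counts of 1 to 3 probes are given as descriptions.

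Over the 23 ligand genes the median log2 difference, VP16LXRa minus control, was -0.08, with 11 higher and 12 lower, beside a median of 0.02 over all 10159 genes tested. Over the 6 receptor genes it was -0.67, with 1 higher and 5 lower. The receptor median was -0.03 without control 2, so its size rests on that array. In these bulk tumours, fewer cells of a type and less RNA per cell cannot be told apart. The chemokine system also varied more between tumours of one group than most genes did. The median SD within groups was 0.64 for ligands and 0.92 for receptors, against 0.43 for all genes tested. Control 2 was the highest of the 8 arrays for 10 of the 29 tested genes, beside 12% of all genes tested, and VP16LXRa 5 for 7, beside 26.7%. Control 3 was the lowest for 13 of the 29, beside 16.5% of all genes.

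**Figure D2:**
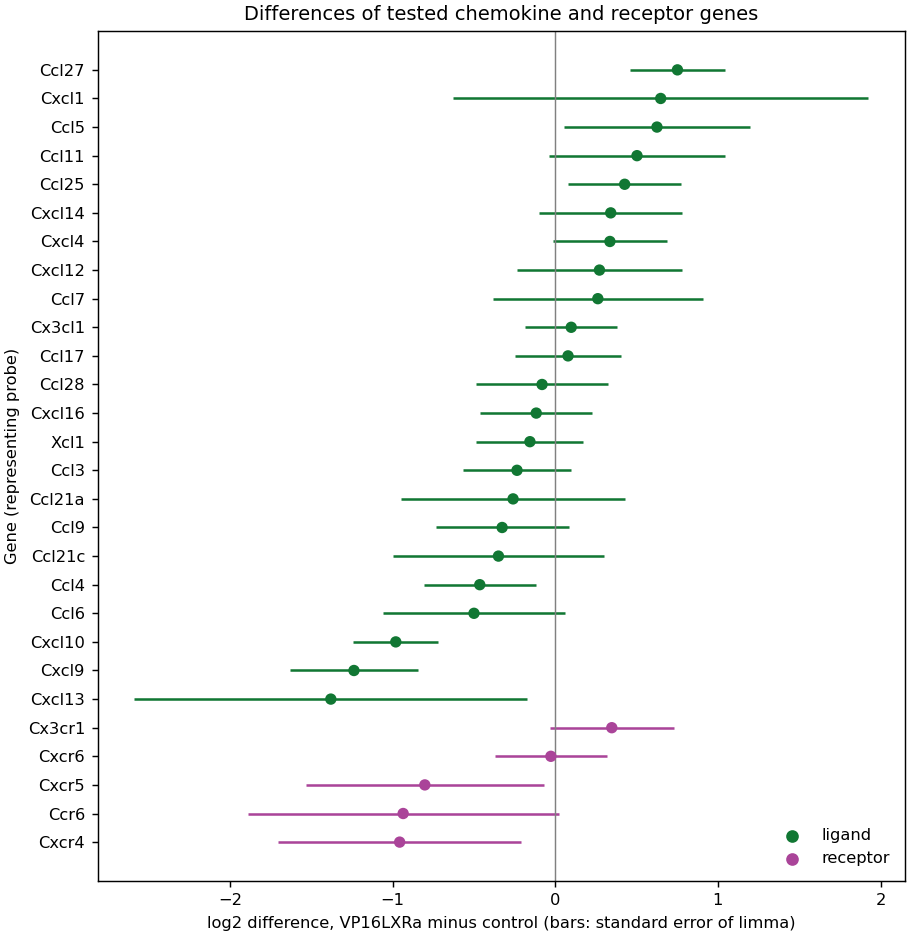
Log2 difference between VP16LXRa and control tumours for 28 tested genes, points with the standard error of the fit, ligands in green and receptors in purple. Cxcl10, Cxcl9, Cxcl13, Cxcr4, Cxcr5 and Ccl4 lie below 0 by more than their standard errors, and Ccl27, Ccl25 and Ccl5 above it. Cxcl13 and Cxcl1 have the widest bars.

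The interferon-induced ligands were the ligands with the smallest p in the comparison. Cxcl10 and Cxcl9 both bind Cxcr3 and draw activated T cells and natural killer cells. Their genes lie near each other on mouse chromosome 5, and the 250 bases before each RefSeq start (GRCm38.p6) are shown because these are the members that were lower together. The Cxcl10 window is chr5:92348890-92349139 and the Cxcl9 window chr5:92328080-92328329, both read on the minus strand from 5′ to 3′. Capitals mark the interferon regulatory factor core AANNGAAA and the NF-κB motif GGGANTTNC, searched on both strands with letters chosen after the sequences were seen.
Cxcl10: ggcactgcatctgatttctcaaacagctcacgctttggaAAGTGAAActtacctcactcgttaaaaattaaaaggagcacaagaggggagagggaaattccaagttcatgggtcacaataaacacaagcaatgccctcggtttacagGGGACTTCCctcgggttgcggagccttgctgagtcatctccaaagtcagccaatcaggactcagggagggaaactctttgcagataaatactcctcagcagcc
Cxcl9: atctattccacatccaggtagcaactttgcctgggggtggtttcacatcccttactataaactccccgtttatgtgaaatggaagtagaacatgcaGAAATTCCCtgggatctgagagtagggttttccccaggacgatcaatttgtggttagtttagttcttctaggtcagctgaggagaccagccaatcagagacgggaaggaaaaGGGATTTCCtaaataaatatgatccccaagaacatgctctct
The Cxcl10 window holds the interferon regulatory factor core 211 bases before the start and the NF-κB letters 103 bases before it. The Cxcl9 window holds the NF-κB letters at 154 and 42 bases and no AANNGAAA. Of all 32851 RefSeq windows of this length, 21.3% hold AANNGAAA and 3.54% hold GGGANTTNC. Among the 38 chemokine and receptor genes with a window, 10 held the first and 7 the second, including Cxcl1, Cxcl2 and Cxcl3 for the second. A match of letters describes the window and does not show binding, and no match says only that these letters are not in this window.

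Cxcl10 was at 6.08, 5.84, 6.43 and 5.68 in controls 1 to 4 and at 4.71, 5.29, 5.37 and 4.74 in VP16LXRa 5 to 8. Every control lay above every VP16LXRa tumour. The means were 6.01 ± 0.33 (SD, n = 4) and 5.03 ± 0.35 (SD, n = 4), a log2 difference of -0.98 (SE 0.26, adjusted p = 0.998 with limma), or 0.507 of the control level. It was detected on all 4 control arrays and on 2 of the 4 VP16LXRa arrays, so the lower values lie close to the background and the fold depends on how background is handled. Leaving out single arrays gave -1.10 to -0.84, and without background correction the difference was -0.31.

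Cxcl9 was brighter and detected on all 8 arrays. It was at 8.94, 10.08, 9.55 and 8.78 in the controls and at 8.29, 8.85, 7.93 and 7.33 in the VP16LXRa tumours. VP16LXRa 6 lay just above control 4 and the other VP16LXRa tumours lay below all controls. The means were 9.34 ± 0.60 (SD, n = 4) and 8.10 ± 0.64 (SD, n = 4), a difference of -1.24 (SE 0.39, adjusted p = 0.998 with limma). Over the alternatives it ranged from -1.50 to -0.96. Cxcl11, the third ligand of Cxcr3, was detected on control 3 alone, at 5.14.

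Of 21 other interferon response genes in the table, 18 were tested. Lower in VP16LXRa tumours were 17 of them, with a median of -0.41 (15 and -0.23 with control 2 left out of the group means), no gene past the threshold, and Ifit1 detected on no array. Their summed intensity was 20945 to 40579 in controls and 25024 to 35060 in VP16LXRa tumours. Control 4 had the lowest sum of all arrays and was the lowest control for both Cxcl10 (5.68) and Cxcl9 (8.78). Its Cxcl10 was above that of every VP16LXRa tumour and its Cxcl9 above that of VP16LXRa 5, 7 and 8. The T cell markers (7 of 9 tested, Cd8a detected on no array) summed to 1261 to 4593 in controls and 1213 to 3653 in VP16LXRa tumours, overlapping widely. The part of either list in the Cxcl9 and Cxcl10 values was not tested.

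**Figure D3:**
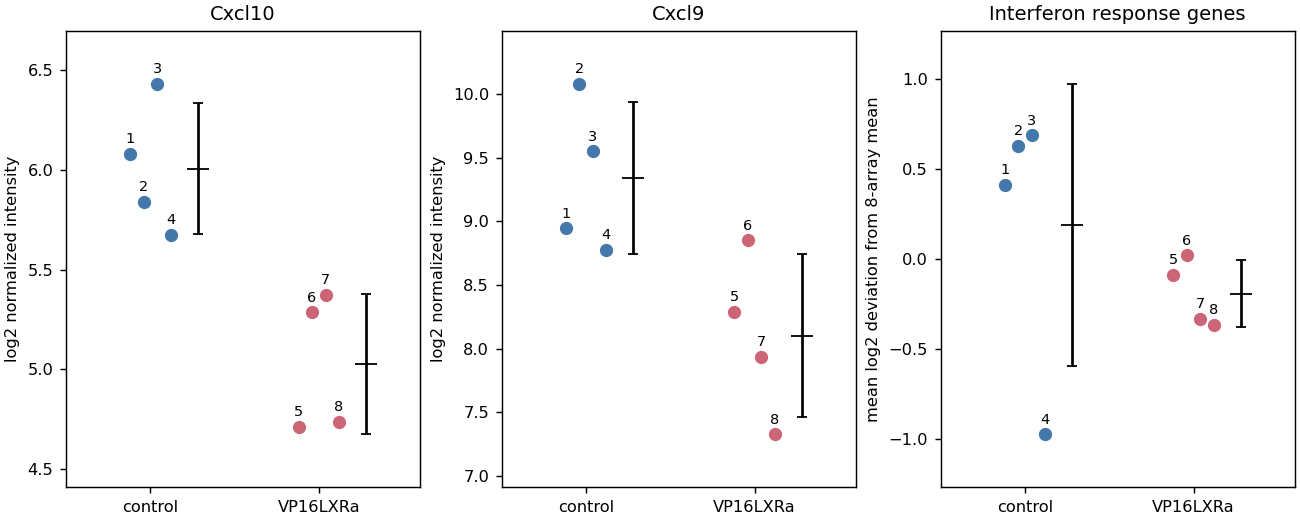
Cxcl10 and Cxcl9 by array (log2 normalised intensity) and the mean log2 deviation of the 18 interferon response genes from their 8-array means, points numbered by replicate with the group mean and SD beside them. The groups separate for Cxcl10. Control 4 is the lowest point of the interferon list, and for both ligands it is the lowest control but not the lowest array.

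Among the lymphoid ligands, single tumours stood out. Cxcl13, which attracts B cells to follicles through Cxcr5, was at 7.25, 11.90, 5.44 and 9.08 in the controls and at 8.62, 6.88, 6.31 and 6.34 in the VP16LXRa tumours. Control 2 stood highest and control 3 lowest, a span within the control group that encloses all the VP16LXRa values. The means were 8.42 ± 2.76 (SD, n = 4) and 7.04 ± 1.09 (SD, n = 4). The difference of -1.38, the largest in size among the 29 genes, was -0.22 without control 2.

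Ccl19, which guides T cells and dendritic cells through Ccr7, was at 8.28 in control 2 and 6.20 in control 4. On the other arrays it was between 4.52 and 5.14. It was detected on controls 2 and 4 and VP16LXRa 6 and was not tested. Ccl21a, the lymphatic and lymph node ligand of the same receptor, was at 9.48, 10.89, 7.80 and 10.73 in the controls and 10.60, 9.58, 8.72 and 8.96 in the VP16LXRa tumours. The groups overlapped throughout, with a difference of -0.26 (SE 0.69, adjusted p = 0.998 with limma), which became 0.13 without control 2 and 0.08 without control 4. Leaving out VP16LXRa 5 gave -0.63. The Ccl21c probe followed it, with a difference of -0.35. RefSeq lists 4 Ccl21 genes (Ccl21a to Ccl21d) on chromosome 4 that are close copies, so these probes may share targets.

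Lymphatic endothelial markers (3 of 4 tested) summed to 324 to 2332 in controls and 608 to 3682 in VP16LXRa tumours. The sum was lowest in control 3 as Ccl21a was, though at only 557 in control 2, where Ccl21a was highest. Of the single markers only Gp38 was lowest in control 3, while Lyve1 was lowest in VP16LXRa 7 and Prox1 in control 2. The lymphoid follicle markers (5 of 6 tested) summed to 1942 in control 2 and between 237 and 474 on the other 7 arrays. B cell markers (4 of 7 tested, Pax5 on no array) summed to 6707 in control 2 and between 135 and 791 elsewhere. Cxcl13, Ccl19 and both lists were highest on the same array, and the part of follicle tissue in the lymphoid chemokine values was not tested.

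Among the ligands of the gut lining, Ccl25 was detected on all 8 arrays. It is made by small intestinal epithelium and by thymus, and its receptor Ccr9 marks lymphocytes that home to the small bowel. It was at 12.48, 13.77, 13.55 and 12.35 in the controls and 13.42, 13.49, 13.24 and 13.70 in the VP16LXRa tumours. Controls 1 and 4 were low and the other 6 arrays lay close together. The difference was 0.43 (SE 0.35, adjusted p = 0.998 with limma), with a second probe at 0.48, and was 0.20 without control 4. The summed ileal enterocyte markers were also lowest in controls 1 and 4, at 51913 and 50198, against 78130 to 117985 on the other arrays. The part of enterocyte content in Ccl25 was not tested.

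Ccl28, another mucosal ligand, was between 4.82 and 6.89 in controls and between 5.37 and 6.02 in VP16LXRa tumours. Cxcl14, expressed in many epithelia and stroma, was at 8.40 ± 0.84 (SD, n = 4) in controls and 8.74 ± 0.54 (SD, n = 4) in VP16LXRa tumours. Its difference of 0.34 was 0.16 without VP16LXRa 5 and -0.03 without control 3, and a second probe differed by -0.05. Cxcl12, the stromal ligand of Cxcr4, was at 9.50, 9.28, 7.27 and 9.71 in the controls and 9.20, 9.35, 9.56 and 8.73 in the VP16LXRa tumours. Its low value in control 3 set the sign, since the difference of 0.27 was -0.28 without that array. Fibroblast markers (6 of 6 tested) were likewise lowest in control 3, at 1650 against 6375 to 15729 in the other controls and 7235 to 14500 in VP16LXRa tumours. Smooth muscle markers (6 of 6 tested) summed to 1801 in control 3 and 24870 to 49727 on the other arrays, and blood endothelial markers (5 of 6 tested) to 511 and 1008 to 1926. Their part in the low chemokine values of control 3 was not tested. Of the other Cxcl12 probes, 2 were tested and both differed by -0.55. These are annotated to transcript variants 1 and 3, while the probe given first has no transcript named in the table, so the probes may not report the same transcripts.

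Neutrophil and inflammatory ligands were high in other tumours. Cxcl1, which binds Cxcr2 on neutrophils, was at 6.35, 4.58, 6.44 and 10.50 in the controls and at 9.72, 6.99, 8.40 and 5.36 in the VP16LXRa tumours. Both extremes lay in the control group, and control 2, the highest for Cxcl13 and Ccl19, was the only array where Cxcl1 was not detected. The means were 6.97 ± 2.51 (SD, n = 4) and 7.62 ± 1.87 (SD, n = 4), and the difference of 0.65 was -0.15 without control 2, -0.04 without VP16LXRa 5 and 1.83 without control 4, so its sign rests on single arrays. Cxcl2 was detected on control 4 alone, at 5.77, and Cxcl3 on no array.

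Control 4 and VP16LXRa 5, the arrays with the most Cxcl1, were also high for Ccl7, Ccl2 and Ccl11, which draw monocytes and eosinophils, a set chosen after its values were seen. Ccl24, another eosinophil attractant, was detected on neither and was highest in VP16LXRa 6 and 7, at 5.58 and 5.61. Ccl7 was at 5.55, 5.02, 4.58 and 6.86 in the controls and 7.45, 5.74, 5.03 and 4.84 in the VP16LXRa tumours. Ccl2, the chief monocyte attractant, was detected on control 4 (5.69) and VP16LXRa 5 (6.52) alone. Ccl11, eotaxin, was highest on those arrays too, at 8.40 and 8.50, with 6.35 to 8.01 elsewhere, whereas its second probe was at 5.55 in control 1 and 5.38 in control 4. The Ccl7 difference of 0.26 was -0.30 without VP16LXRa 5, and that of Ccl11, 0.50, was 0.18. Ccl9 was at 10.35 in control 4 and between 8.19 and 9.37 on the other arrays. Neutrophil markers (4 of 6 tested, Camp and Ngp on no array) summed to 1179 in control 4 and 659 in VP16LXRa 5, the highest of each group, with 116 to 547 on the others. Fibroblast markers were also highest there, at 15729 and 14500. Macrophage and monocyte markers (10 of 10 tested) summed to 1521 to 4096 in controls, highest in control 4, and 1903 to 2804 in VP16LXRa tumours, lowest in array 5. In array 5, however, 6 of the 10 were the highest of the VP16LXRa group and 3 the lowest, among them C1qa and C1qc. Whether any of these cell types supplied the ligands was not tested.

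**Figure D4:**
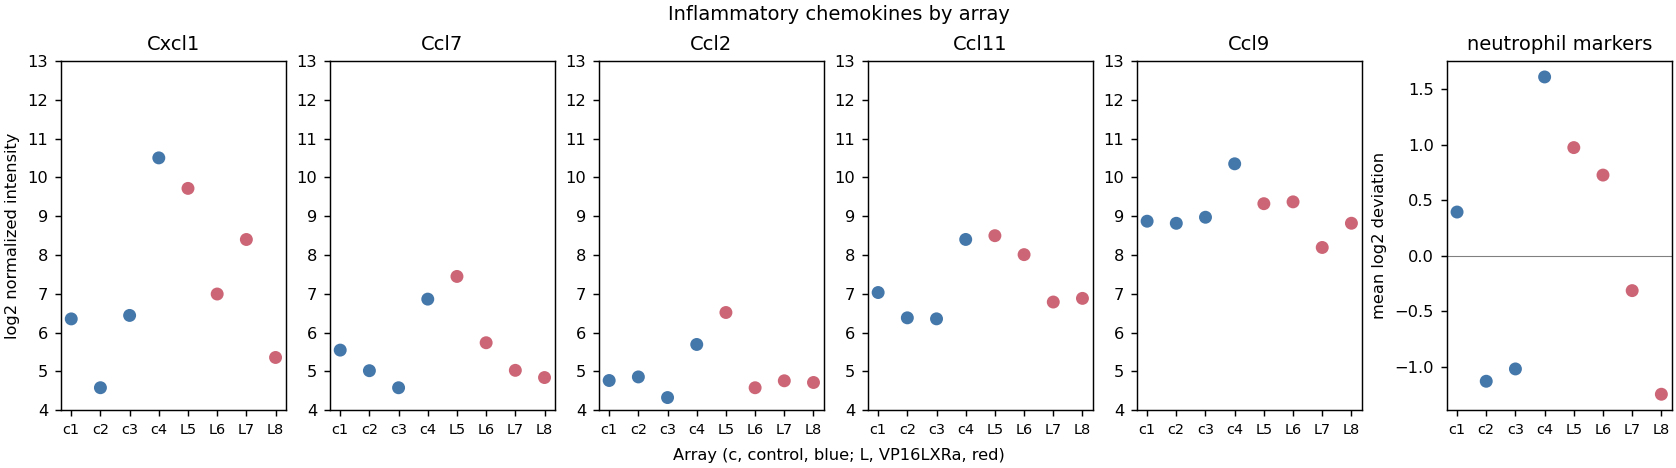
Cxcl1, Ccl7, Ccl2, Ccl11 and Ccl9 by array (log2 normalised intensity, controls blue, VP16LXRa red) with the mean log2 deviation of the neutrophil markers at the right. Control 4 and VP16LXRa 5 are the 2 highest arrays for Cxcl1, Ccl7, Ccl2 and Ccl11.

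Ccl4 and Ccl5 are typical of cytotoxic and memory lymphocytes. Ccl5 was at 10.76, 10.91, 11.20 and 8.63 in the controls and 11.78, 11.16, 10.16 and 10.90 in the VP16LXRa tumours, so that control 4, high for the monocyte ligands, was the lowest array for Ccl5. The difference of 0.63 (SE 0.57, adjusted p = 0.998 with limma) was 0.04 without control 4 and 0.36 without VP16LXRa 5. Ccl4 was at 8.22, 8.76, 8.25 and 7.47 in the controls and 7.98, 8.14, 7.71 and 7.00 in the VP16LXRa tumours, with overlapping groups and a difference of -0.46 (SE 0.34, adjusted p = 0.998 with limma). A second Ccl4 probe differed by -0.10. Ccl3, close to Ccl4 in sequence and function, was detected on 3 control arrays and 1 VP16LXRa array. That array, VP16LXRa 6, had the highest Ccl3 value, 5.98, with 4.83 to 5.87 in controls. The Ccl3 difference of -0.24 was -0.12 without VP16LXRa 5 and 0.21 with array weights. Ccl6 was at 8.02 ± 0.71 (SD, n = 4) and 7.52 ± 1.11 (SD, n = 4), a difference of -0.50 that was -0.08 without VP16LXRa 5, and Ccl17, Ccl24 and Cxcl17 were each detected on at most 4 arrays. Xcl1, which draws cross-presenting dendritic cells, was between 5.03 and 6.52, highest in control 2.

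Cx3cl1, fractalkine, and Cxcl16 are made as membrane-bound proteins. Cx3cl1 was at 10.10, 9.59, 9.82 and 8.88 in the controls and 9.74, 9.43, 9.81 and 9.80 in the VP16LXRa tumours. Control 4 was the lowest and control 1 the highest, enclosing all VP16LXRa values. The difference was 0.10 (SE 0.28, adjusted p = 0.998 with limma) and was -0.14 with array weights and without control 4. Cxcl16, the ligand of Cxcr6, was at 9.44 ± 0.49 (SD, n = 4) in controls and 9.32 ± 0.54 (SD, n = 4) in VP16LXRa tumours. Cxcl4, platelet factor 4 and now named Pf4, was at 6.42 ± 0.67 (SD, n = 4) and 6.76 ± 0.34 (SD, n = 4). The Cxcl4 difference of 0.34 was 0.19 without VP16LXRa 5 and 0.05 without control 3.

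Ccl27, now Ccl27a, is known as a skin chemokine that binds Ccr10. Its brighter probe, annotated to transcript variant 2, was at 7.12, 7.08, 6.47 and 7.62 in the controls and 8.27, 7.75, 7.84 and 7.43 in the VP16LXRa tumours. VP16LXRa 8 lay below control 4 and the others above all controls. The difference was 0.75 (SE 0.29, adjusted p = 0.998 with limma), with 0.54 to 0.95 on leaving out single arrays, and the variant 1 probe differed by 0.34. RefSeq lists a second copy, Ccl27b, on the same chromosome, so the signal cannot be assigned to one copy.

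Of the receptors, Ccr6, Cxcr4 and Cxcr5 were highest in control 2, with VP16LXRa 5 next. Ccr6, the receptor of Ccl20 on B cells and Th17 cells, was at 7.05, 10.02, 5.19 and 6.85 in the controls and 8.10, 5.90, 5.64 and 5.72 in the VP16LXRa tumours. The difference was -0.94 (SE 0.96, adjusted p = 0.998 with limma), with a second probe at -0.73. It was -0.02 without control 2 and -1.51 without VP16LXRa 5. Cxcr5 was at 5.25, 8.13, 4.45 and 5.45 in the controls and 6.10, 4.56, 4.54 and 4.86 in the VP16LXRa tumours, detected on 3 of 4 and 1 of 4. Its difference of -0.80 (SE 0.73, adjusted p = 0.998 with limma) was -0.03 without control 2. The other Cxcr5 probes, not tested, were at 8.91 and 7.04 in control 2 and at most 6.22 and 4.95 elsewhere, so all 3 probes were highest on control 2.

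Cxcr4, the widely expressed receptor of Cxcl12, was at 6.46, 9.0, 5.90 and 7.41 in the controls and 7.96, 6.06, 5.45 and 5.47 in the VP16LXRa tumours. The same arrays were high as for Ccr6 and Cxcr5. The 2 tested transcript variant probes of Cxcl12 were also highest in control 2, at 7.30 and 6.59, but lowest of all arrays in VP16LXRa 5, at 4.74 and 4.84. An untested Cxcl12 probe of transcript variant 1 was instead highest in VP16LXRa 5, at 6.03, and was at 4.72 and not detected in control 2. The Cxcr4 difference was -0.96 (SE 0.75, adjusted p = 0.998 with limma), with -0.36 without control 2 and -1.53 without VP16LXRa 5. Without both arrays, an alternative chosen after seeing the data, the differences were -0.60 for Ccr6, -0.94 for Cxcr4 and -0.42 for Cxcr5. As given above, the B cell marker sum was highest in control 2, and VP16LXRa 5 had the next highest at 791, close to 703 in control 4. The T cell marker sum was also highest in control 2, at 4593, and next in VP16LXRa 5, at 3653, with 1213 to 1981 on the other arrays. The part of either cell type in these receptor values was not tested.

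**Figure D5:**
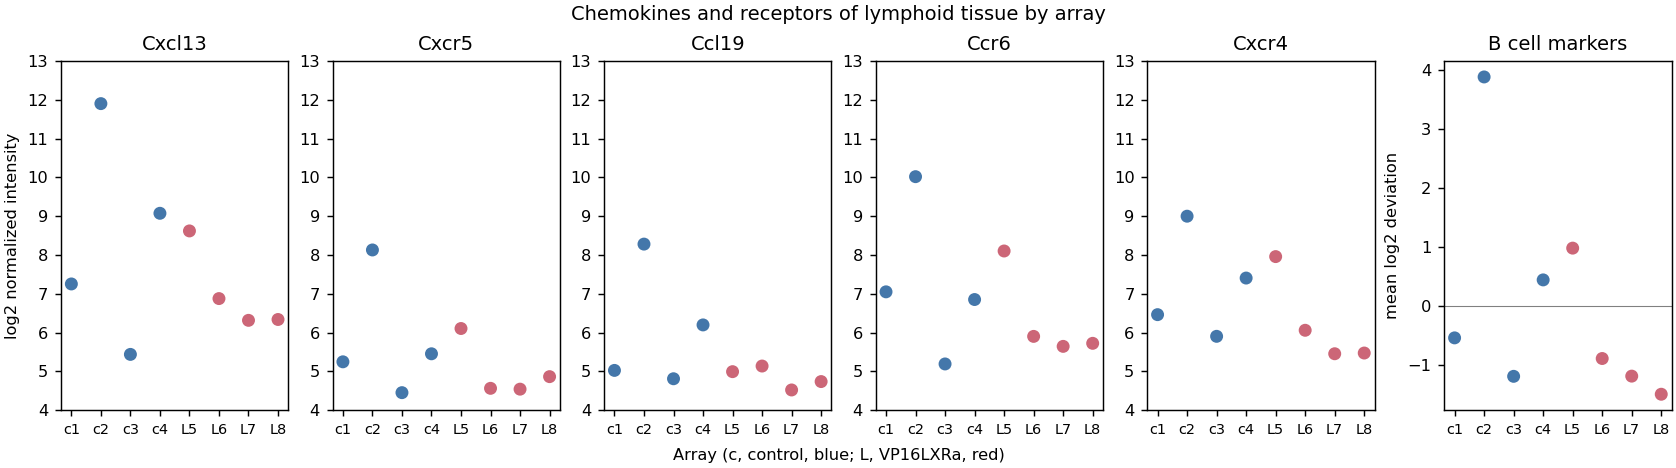
Cxcl13, Cxcr5, Ccl19, Ccr6 and Cxcr4 by array (log2 normalised intensity, controls blue, VP16LXRa red) with the mean log2 deviation of the 4 tested B cell markers at the right. Control 2 is the highest array in every panel.

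Receptors of T cells and myeloid cells followed. Cxcr3, the receptor of Cxcl9 and Cxcl10, was at 5.23, 7.01 and 5.22 in controls 1 to 3, where it was detected, and at 4.60 in control 4. In the VP16LXRa tumours it was between 4.67 and 4.83 and detected on none. That makes it at least 1.34-fold lower, from group means of 5.51 and 4.75 and the lowest detected signal of each dim array, but it was detected on too few arrays to be tested. Without control 2 the control mean was 5.01, below the 5.10 of that lowest detected signal, and no bound remains. Cxcr6 was at 5.25 ± 0.48 (SD, n = 4) in controls and 5.22 ± 0.57 (SD, n = 4) in VP16LXRa tumours. Its difference of -0.03 was -0.28 without VP16LXRa 5. Cx3cr1, the fractalkine receptor of macrophages, was at 6.83, 6.14, 5.26 and 7.08 in the controls and 6.43, 6.81, 6.91 and 6.55 in the VP16LXRa tumours. Its difference of 0.35 (SE 0.38, adjusted p = 0.998 with limma) was -0.01 without control 3.

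Several ligands were detected on most or all arrays, while the signalling receptor paired with them here was detected on none or on control 2 alone. Atypical receptors, given in the next paragraph, are left out of these pairs. Ccl25 was present on all arrays and Ccr9 on none. Ccl21a was present on all and Ccr7 only on control 2, at 5.32. Ccl28 and Ccl27 were detected on at least 7 arrays and Ccr10 on none. The neutrophil receptor genes Il8ra and Il8rb (now Cxcr1 and Cxcr2), outside the name pattern, were also detected on no array, including those with high Cxcl1. Conversely Ccr6 was detected on all arrays and its ligand Ccl20 on none. Other pairs were detected together: Cx3cl1 with Cx3cr1, and Cxcl12 (by at least 1 probe) with Cxcr4, on all arrays. Cxcl16 was detected on all arrays and its receptor Cxcr6 on 5. Since 10 of the 18 receptors were detected on no array, ligands without a detected receptor are common here whatever the pair. Levels of different probes cannot be set against each other, so these pairs compare detection only.

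Among other genes of the pathway, none passed the threshold in either direction. The atypical receptors outside the name pattern, some of which scavenge chemokines, were Darc, Ccbp2, Ccrl1 and Ccrl2 (4 of 4 tested, 3 higher, median difference 0.21). Darc was at 5.75 in controls and 6.28 in VP16LXRa tumours, and Ccrl2 at 5.81 and 5.97. Of 28 signalling genes downstream of the receptors 23 were tested and 18 were lower, with a median of -0.23, against 14 and -0.09 with control 2 left out of the group means. The brightest were the G protein beta subunits Gnb1 (-0.23, SE 0.36) and Gnb2 (-0.07, SE 0.23). A list of 12 genes held inducers of chemokine genes and also Nfkbia, which encodes an inhibitor of NF-κB. Of these 11 were tested and 10 were lower, with a median of -0.49, and -0.35 without control 2. Nfkbia was among the lower genes (-0.63, SE 0.29). Some genes of this list are also in the interferon list, and Lta and Ltb are in the follicle list. The brightest were Irf1 (-0.13, SE 0.24) and the NF-κB subunit Rela (0.07, SE 0.27). Of 6 proteases that trim or release chemokines 4 were tested and 3 were higher, with Dpp4, which clips Cxcl10 and other ligands, at 0.65 (SE 0.61) and Adam17 at 0.24 (SE 0.20). Of 6 other chemokine-like genes and receptors 3 were tested, the brightest being Mif (0.25, SE 0.43) and Cmtm6 (0.11, SE 0.27). All these differences had an adjusted p of 0.998 with limma.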

How the data were processed

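Total RNA of 8 ileal tumours, 4 VP16 and 4 VP16LXRa, was measured on Illumina BeadChips of a version the labels do not state. The deposited table gives, per the file headers, each probe's average bead signal (linear intensity) with its detection p-value on each array. GenomeStudio is named in the submitters' processing notes. The authors' second table of intensity values, which holds negative values, has column medians of 20.1 to 20.4 and ranks probes within each array as the bead signals do (its further processing was not established), served as an alternative, floored at 16.

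Signals were corrected with normexp (offset 16, negative controls inferred from detection p-values), quantile-normalised and put on a log2 scale. The 13426 of 25697 probes detected (p under 0.05) on 4 or more arrays were fitted with lmFit and eBayes in limma 3.58.1 (R 4.3.3, statmod 1.5.0), two-sided, with Benjamini-Hochberg adjustment over all tested probes and a threshold of 0.05. The fit was tested on simulated data. For genes with several tested probes, the one of highest mean stands for the gene. Gene symbols are those of the deposited table, and of the 53 members 50 are current in RefSeq and 3 matched through a synonym. Windows before a RefSeq start were matched for 38 genes.

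Members, gene lists, marker lists and tests were chosen with earlier results of these data known. Values on every array with the fit are given for the 5 ligand and 3 receptor genes with the smallest p and the 4 ligand and 3 receptor genes with the highest mean, except that 1 receptor is counted in the totals and not reported here. Other members are described by their values, and those with values on every array beyond this rule were chosen after their values were seen. A list's summed intensity adds its tested genes' normalised linear intensities. Alternatives covered background, offset, normalisation, filter, weights, variance prior, probe choice and each array left out. Leaving control 2 out of the gene lists and of the Cxcr3 bound was chosen after seeing the data and used the group means without a new fit. The number of arrays limits the precision.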

Additional observations from a re-analysis of the deposited data

Results flagged for a closer look

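Of 62 sets of 4 values examined for a sample far from the other 3 (the 29 tested genes and the numbers of probes detected, by group), 3 met the criterion, where chance alone gives about 3.1. Ccr6 reached 8.10 in VP16LXRa 5, when its group otherwise spanned 5.64 to 5.90. Ccl9 reached 10.35 in control 4, when its group otherwise spanned 8.82 to 8.97. Ccl17 was lowest in VP16LXRa 8 at 4.77, when its group otherwise spanned 5.18 to 5.22.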

How the results depend on the processing

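No paired analysis was possible because the replicate numbers of the groups (1 to 4 and 5 to 8) do not overlap. No chemokine or receptor probe and no other pathway gene passed the adjusted threshold of limma under any alternative run, and the number of chemokine probes at an unadjusted p under 0.05 ranged from 2 to 4 beside 3. With the stricter detection p under 0.01, the control arrays held on average 25.25 ligand probes and 5.75 receptor probes, and the VP16LXRa arrays 25.25 and 4.75. Cxcl10 and Cxcl9 were below 0 in each alternative that tested them, with adjusted p of 0.69 to 1 and 0.76 to 1. With array weights the sign turned for Cx3cl1 (-0.14) and Ccl3 (0.21). Leaving out single arrays, Cx3cl1 ranged from -0.14 to 0.26, Ccl21a from -0.89 to 0.13 and Cx3cr1 from -0.0098 to 0.59. The ligand median ranged from -0.21 to 0.10 over all alternatives, the positive values coming without control 2, control 4 or VP16LXRa 8, and the receptor median from -0.96 to -0.03. With all probes the receptor median was -0.10. Over all probes on the array, 0 passed the adjusted threshold, against 2 with array weights, 1 with cyclic loess and 0 to 2 on leaving out single arrays, with 2 without VP16LXRa 5. For turned signs the cause was not tested. Dim probes are limited by the background: Cxcl10 ranged from -1.29 with the authors' table to -0.31 without background correction.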
